A study of Mus musculus and Homo sapiens with 9 samples.

Results

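Peaks that lay over protein-coding exons in the interior of genes were taken from 9 CUT&Tag peak lists. A peak was a member when it overlapped annotated coding sequence (CDS) by at least 1 bp and its midpoint was over 3 kb from every annotated transcription start site (TSS) and over 1 kb from every 3' end of a protein-coding gene. By this rule 2279 of 102544 peaks were members, which are called coding-exon peaks here. The rule used positions only and no measured value. CUT&Tag is an assay in which an antibody brings a transposase to its target in permeabilised cells, and the tagged DNA beside the target is sequenced.

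The 5 mouse libraries came from mouse embryonic fibroblasts (MEFs), and 4 of them used S9.6, an antibody that binds RNA-DNA hybrids. These 4 were Mcm8 wildtype (WT), Mcm8 knockout (KO, a germline deletion of exon 7 made by CRISPR), shControl (genotype given as control), and shDdx5, in which an adenovirus carried a short hairpin RNA against Ddx5. The other MEF library had a wildtype genotype and no primary antibody (No-antibody). The Mcm8 fibroblasts were taken from mid-gestation embryos of mixed C57BL/6J and ICR background and were immortalised with SV40, and the background of the shControl and shDdx5 cells is not given in their labels. The 4 human libraries came from HEK293, a transformed embryonic kidney line. All 4 had a wildtype genotype. One had mouse IgG in place of a specific antibody, and one had anti-FLAG in cells given a FLAG-MCM8 plasmid that carries the MCM8 cDNA. The other two had S9.6, in cells without a plasmid (S9.6) or in cells given an RNH1 plasmid (RNH1). In the study's usage RNH1 is RNase H1, which cuts RNA that is paired with DNA. Each group was 1 library, so every difference compares libraries and not conditions, no p-value was computed, and each 95% interval covers counting error only. No difference between a MEF list and a HEK293 list was computed, because the weakest p kept in a list differed between the cell types.

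An R-loop is a stretch where RNA pairs with its template strand of DNA and the other strand is left single. R-loops form during transcription, are best known at promoters and at the ends of genes, and are removed by RNase H enzymes and by helicases. Coding exons far from a TSS are sequences where the nascent transcript is spliced, and most of the transcribed length around them is intron. MCM8 is a helicase of homologous recombination, and DDX5 is a DEAD-box RNA helicase.

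The sequences below show the kinds of place where coding-exon peaks lay. They are printed 5′ to 3′ on the strand of the gene from the mm10 and hg38 references, with coding bases in capitals and other bases in lower case. The first pair are the whole FLAG-MCM8 peaks over MCM8 exon 15 (chr20:5984789-5985006, hg38, plus strand) and exon 16 (chr20:5985914-5986132), shown because their borders follow the exon borders. Tmem8b is a whole shControl peak (chr4:43685714-43686012, mm10, plus strand) bounded by the edges of neighbouring exons. The next 3 are the bases that peaks of several lists had in common: KLHL31 from IgG, FLAG-MCM8 and S9.6 (chr6:53651806-53652056, hg38, minus strand), Eng from all 4 S9.6 MEF lists (chr2:32680286-32680329, mm10, plus strand) and Vps13b from WT, KO and shDdx5 (chr15:35878527-35878736, mm10, plus strand).
MCM8 exon 15: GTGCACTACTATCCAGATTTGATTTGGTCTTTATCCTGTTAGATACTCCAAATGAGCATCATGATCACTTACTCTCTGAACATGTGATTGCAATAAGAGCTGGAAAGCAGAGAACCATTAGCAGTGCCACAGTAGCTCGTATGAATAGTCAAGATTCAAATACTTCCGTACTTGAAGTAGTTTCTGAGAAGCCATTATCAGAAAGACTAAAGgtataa
MCM8 exon 16: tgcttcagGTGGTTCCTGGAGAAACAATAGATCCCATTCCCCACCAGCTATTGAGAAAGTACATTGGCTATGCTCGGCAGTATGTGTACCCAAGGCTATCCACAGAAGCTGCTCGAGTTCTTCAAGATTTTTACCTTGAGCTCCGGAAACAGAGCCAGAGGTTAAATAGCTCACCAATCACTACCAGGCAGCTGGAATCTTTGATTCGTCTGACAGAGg
Tmem8b: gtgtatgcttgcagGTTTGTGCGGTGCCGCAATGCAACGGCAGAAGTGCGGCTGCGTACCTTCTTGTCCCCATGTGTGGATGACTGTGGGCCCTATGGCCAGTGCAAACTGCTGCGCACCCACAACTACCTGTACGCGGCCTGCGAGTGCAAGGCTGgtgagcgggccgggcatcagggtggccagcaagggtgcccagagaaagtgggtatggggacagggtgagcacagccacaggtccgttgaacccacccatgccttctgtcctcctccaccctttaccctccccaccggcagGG
KLHL31: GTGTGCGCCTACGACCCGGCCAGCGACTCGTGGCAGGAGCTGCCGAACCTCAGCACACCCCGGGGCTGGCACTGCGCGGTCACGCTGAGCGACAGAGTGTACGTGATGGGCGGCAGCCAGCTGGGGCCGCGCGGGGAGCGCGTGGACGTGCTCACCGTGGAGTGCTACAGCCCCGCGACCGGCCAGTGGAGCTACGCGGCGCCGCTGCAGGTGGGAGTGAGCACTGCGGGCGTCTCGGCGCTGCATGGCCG
Eng: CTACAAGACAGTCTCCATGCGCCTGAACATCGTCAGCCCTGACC
Vps13b: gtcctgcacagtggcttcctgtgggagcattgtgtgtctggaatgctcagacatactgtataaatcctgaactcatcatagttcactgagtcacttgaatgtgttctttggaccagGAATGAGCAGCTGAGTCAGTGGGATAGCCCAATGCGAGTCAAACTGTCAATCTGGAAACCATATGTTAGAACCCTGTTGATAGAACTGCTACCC

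The MCM8 sequences were almost all coding, with 212 of 218 bases of the exon 15 peak and 210 of 219 bases of the exon 16 peak in capitals. The Tmem8b peak held 145 coding bases of 299 and ran from just before 1 exon to just after the start of the next. The shared KLHL31 bases were all coding and 72.9% G + C. In Vps13b only 94 of the 210 shared bases were coding, and the others belonged to the intron before exon 49.

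Coding-exon peaks were a small part of every list. In MEFs they were 155 of 6481 peaks in WT (2.39%, Wilson interval 2.05 to 2.79), 266 of 9605 in KO (2.77%, 2.46 to 3.12), 322 of 12259 in shControl (2.63%, 2.36 to 2.93), 269 of 11768 in shDdx5 (2.29%, 2.03 to 2.57) and 74 of 4314 in No-antibody (1.72%, 1.37 to 2.15). In HEK293 cells they were 318 of 15147 peaks in S9.6 (2.1%, 1.88 to 2.34), 283 of 12497 in RNH1 (2.27%, 2.02 to 2.54), 271 of 13295 in FLAG-MCM8 (2.04%, 1.81 to 2.29) and 321 of 17178 in IgG (1.87%, 1.68 to 2.08). Most peaks over CDS lay nearer to a TSS and were outside the rule, for example 846 of the 1015 in WT and 2542 of the 2892 in the HEK293 S9.6 list. At the TSS limit, the peaks over CDS with midpoints 2.5 to 3 kb away numbered 5 to 48 per list with median folds of 3.03 to 4.55, and those 3 to 3.5 kb away numbered 6 to 29 with median folds of 3.16 to 4.34.

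The share of the list did not separate KO from WT, and whether it separated shDdx5 from shControl depended on the setting. KO had 111 more coding-exon peaks than WT, a ratio of 1.72 (1.41 to 2.09) beside a ratio of 1.48 (1.44 to 1.53) for all peaks, and its share was 0.378 percentage points higher with an interval from -0.129 to 0.867. shDdx5 had 53 fewer than shControl, a ratio of 0.835 (0.711 to 0.982) beside 0.960 (0.936 to 0.985) for all peaks, and the share for shDdx5 less shControl was -0.341 points with an interval from -0.733 to 0.0516. In 2 of 8 alternative settings that interval lay below 0, at -1.14 points (-1.69 to -0.604) for the same number of strongest peaks and -0.585 (-1.08 to -0.0881) for transcripts with the basic tag only. Against No-antibody, WT was higher by 0.676 points (0.123 to 1.21), KO by 1.05 (0.522 to 1.55), shControl by 0.911 (0.402 to 1.37) and shDdx5 by 0.571 (0.0684 to 1.02). The WT interval excluded 0 in 5 of 7 alternative settings, including a reversal at a q of at most 1e-05. It included 0 for the same number of strongest peaks (0.139 points, -0.425 to 0.705) and with 50% of the width over CDS (0.239, -0.0370 to 0.496). For KO, shControl and shDdx5 less No-antibody no alternative was run on this share. Among HEK293 lists, S9.6 less IgG was 0.231 points (-0.0733 to 0.539), FLAG-MCM8 less IgG was 0.170 points (-0.142 to 0.488) and RNH1 less S9.6 was 0.165 points (-0.180 to 0.516), so these 3 differences were within counting error, while RNH1 less IgG was 0.396 points (0.0697 to 0.732). Other settings ended that call for S9.6 less IgG in 3 of 7 cases, at 0.302 points (0.137 to 0.475) with 50% of the width over CDS, 0.911 (0.518 to 1.31) with a TSS limit of 1 kb and 1.73 (1.3 to 2.17) with basic-tag transcripts. They did so for FLAG-MCM8 less IgG in 2 of 7, at 0.239 (0.0723 to 0.415) with 50% of the width and 0.692 (0.273 to 1.12) with basic-tag transcripts.

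The antibody libraries stood apart from their controls when only the interior of genes was considered. This measure, added after the values were seen, is the number of coding-exon peaks as a percent of coding-exon and intronic peaks together, where an intronic peak obeyed the same distance limits, lay in a protein-coding gene and touched no annotated exon. It was 5.41% (4.33 to 6.74) in No-antibody, and it was 9.16% (7.87 to 10.6) in WT, 10.3% (9.19 to 11.5) in KO, 9.66% (8.62 to 10.8) in shDdx5 and 8.89% (8.01 to 9.86) in shControl. In HEK293 cells it was 9.63% (8.67 to 10.7) in S9.6 and 10.3% (9.24 to 11.5) in RNH1, 7.1% (6.33 to 7.96) in FLAG-MCM8 and 5.95% (5.35 to 6.61) in IgG. The positions inside genes at which a peak of the list's median width would count as coding-exon were 5.67% to 6.61% of the permitted positions in MEFs and 4.17% to 4.92% in HEK293 cells. The No-antibody interval included its share of positions (6.61%), and the interval of each other list lay above its own.

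**Figure D1:**
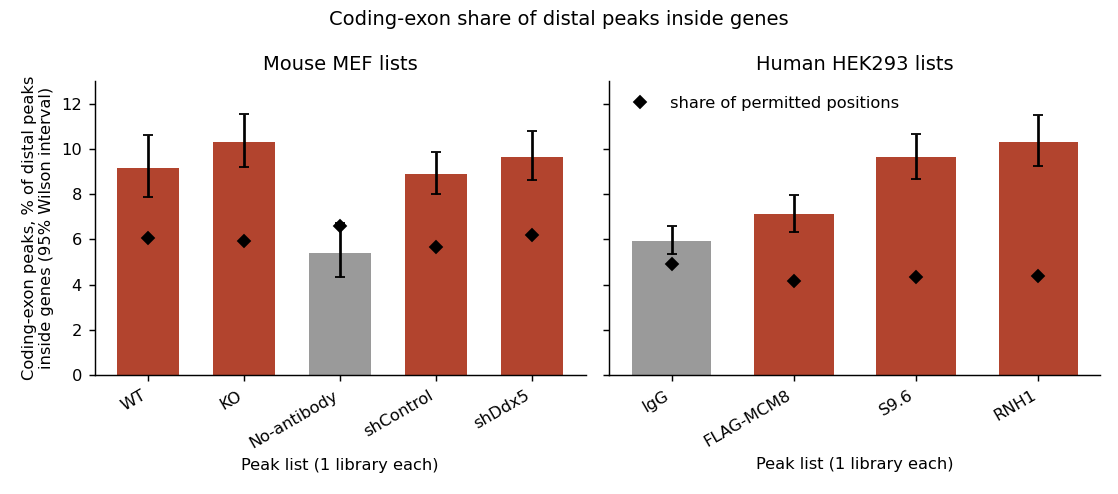
Coding-exon peaks as a percent of all distal peaks inside genes, by list, with 95% Wilson intervals; grey bars are the control libraries (No-antibody, IgG), and black diamonds give the percent of permitted positions where a peak of the list's median width would count as coding-exon. The 4 S9.6 MEF lists sit between 8.89% and 10.3% against 5.41% in No-antibody, and the HEK293 S9.6 and RNH1 lists sit at 9.63% and 10.3% against 5.95% in IgG.

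The differences exceeded counting error for each antibody library against its control. WT less No-antibody was 3.75 points (1.90 to 5.57), KO less No-antibody 4.90 (3.16 to 6.54), shControl less No-antibody 3.48 (1.89 to 4.93) and shDdx5 less No-antibody 4.25 (2.56 to 5.83). S9.6 less IgG was 3.68 points (2.52 to 4.90), RNH1 less IgG was 4.37 (3.10 to 5.71), and FLAG-MCM8 less IgG was 1.16 (0.139 to 2.21), which exceeded counting error in only 3 of 5 alternative settings. FLAG-MCM8 was lower than S9.6, by -2.53 points (-3.83 to -1.24), but with the summit on a coding base the difference was -0.489 (-1.33 to 0.334), an interval that includes 0. The perturbations did not separate on this measure, since KO less WT was 1.15 points (-0.692 to 2.93), shDdx5 less shControl 0.769 (-0.656 to 2.22) and RNH1 less S9.6 0.690 (-0.821 to 2.22). The comparisons within a cell type share control libraries. The median pileup at the members was lower in No-antibody than in the other MEF libraries but not lower in IgG than in S9.6, and the part of depth in the MEF differences was not tested.

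Most MEF coding-exon peaks were weak and rested on few fragments. HEK293 values are given beside them, but the weakest p kept differed between the cell types. The levels of MEF and HEK293 lists are therefore not on the same footing. The pileup at the summit, recovered from each peak's fold and p, had a median of 3.5 fragments in No-antibody and of 9 in WT, 9 in KO, 10 in shDdx5 and 8 in shControl. In HEK293 cells it was 19 in S9.6, 22 in RNH1, 14 in FLAG-MCM8 and 21 in IgG. Median fold enrichment over the local background was 3.27 to 3.47 in MEF lists and 3.85 to 4.62 in HEK293 lists, and the intronic medians were 3.27 to 3.47 and 4.14 to 4.62. In MEFs 28 of the 155 WT members had a q of at most 0.05 (18.1%, where 32.7% of all WT peaks did), 60 of 266 in KO (22.6% against 36.1%), 66 of 322 in shControl (20.5% against 28.1%), 114 of 269 in shDdx5 (42.4% against 60.5%) and 8 of 74 in No-antibody (10.8% against 8.76%). Each S9.6 MEF list thus had a lower share among its coding-exon peaks than over all its peaks, and the intronic shares were close to the members' (21.5% in WT, 23.2% in KO, 46.3% in shDdx5 and 20.5% in shControl). Members with a q of at most 1e-05 numbered 0 in WT and shControl, 1 in KO, 2 in shDdx5 and 1 in No-antibody. All HEK293 peaks had a q under 0.05. Of the HEK293 members 46.9% in S9.6, 48.4% in RNH1, 38.4% in FLAG-MCM8 and 62.0% in IgG had a q of at most 1e-05. Over all peaks of these lists the shares were 57.6%, 56.4%, 39.2% and 58.8%.

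**Figure D2:**
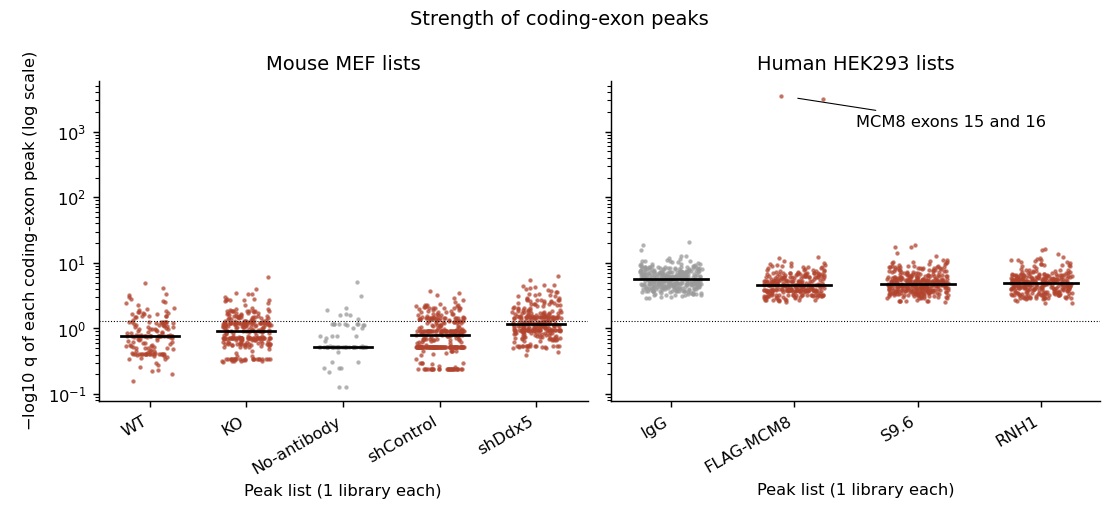
The −log10 q of every coding-exon peak by list on a log axis, with a black bar at each median and a dotted line at a q of 0.05; grey points are control libraries. Most MEF members lie under the dotted line, and in FLAG-MCM8 only the peaks over MCM8 exons 15 and 16, at 3556 and 3123, lie far above the others.

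Coding-exon peaks mostly touched an exon rather than sat on it, an outcome that a rule of 1 bp favours. The summit fell on a coding base in 62 of 155 members in WT (40%, 32.6 to 47.9), 99 of 266 in KO (37.2%, 31.6 to 43.2), 144 of 322 in shControl (44.7%, 39.4 to 50.2), 94 of 269 in shDdx5 (34.9%, 29.5 to 40.8) and 17 of 74 in No-antibody (23%, 14.9 to 33.8). In HEK293 cells it did so in 125 of 318 in S9.6 (39.3%, 34.1 to 44.8), 131 of 283 in RNH1 (46.3%, 40.6 to 52.1), 124 of 271 in FLAG-MCM8 (45.8%, 39.9 to 51.7) and 104 of 321 in IgG (32.4%, 27.5 to 37.7). Summits placed anywhere in the peaks would give about the coding share of the members' pooled bases. That share was 37.1% in WT, 35.5% in KO, 40.3% in shControl, 35.3% in shDdx5 and 29.7% in No-antibody. It was 41.9% in S9.6, 41.6% in RNH1, 42.6% in FLAG-MCM8 and 34.5% in IgG. The summit interval of each list included its share. WT exceeded No-antibody by 17.0 points (3.97 to 28.3), shControl by 21.8 (9.73 to 31.5) and KO by 14.3 (2.11 to 24.3), whereas shDdx5 less No-antibody was 12.0 points (-0.102 to 22.0). RNH1 exceeded IgG by 13.9 points (6.09 to 21.5) and FLAG-MCM8 did so by 13.4 (5.48 to 21.1), whereas S9.6 less IgG was 6.91 points (-0.524 to 14.2). shDdx5 was lower than shControl, by -9.78 points (-17.5 to -1.84), and KO less WT was -2.78 points (-12.4 to 6.70). Peaks were wider in the controls, with median member widths of 402 bp in No-antibody and 381 bp in IgG against 283 to 353 bp in the other lists, and a wider peak reaches an exon from farther away. The shDdx5 members were likewise wider than those of shControl, with medians of 353 bp and 283 bp. The part of width in these differences was not tested.

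The coding part of a member was usually less than its non-coding part. The median member had 27.1% (IgG) to 38.0% (FLAG-MCM8) of its width over CDS, and members wholly inside CDS numbered 3 in No-antibody and 14 to 44 in the other lists. The overlapped exon had a median length of 142 to 170 bp, shorter than the peak. Members over an internal coding exon were 76.3% to 87.8% of a list, near the 79.3% of mouse and 76.4% of human coding bases under the same limits that lie in internal exons. Exons of 1 kb or more were hit by 6.76% to 12.7% of members although they hold 15.2% of such bases in mouse and 18.7% in human. A rule of 1 bp favours short exons per coding base, so these shares are not on the same footing. Between 93.0% and 98.9% of members touched an exon of a principal or canonical transcript.

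Summits of coding-exon peaks were richer in G + C than intronic summits in each list. In a window of 50 bp to each side of the summit the median was 54.5% in WT against 48.5% for intronic peaks, 52.5% against 48.5% in KO, 53.5% against 48.5% in shControl, 53.5% against 49.5% in shDdx5 and 48.0% against 44.6% in No-antibody. In HEK293 cells it was 60.4% against 54.5% in S9.6, 59.4% against 54.5% in RNH1, 58.4% against 50.5% in FLAG-MCM8 and 52.5% against 45.5% in IgG. The controls were therefore the lowest of their cell type on both kinds of peak. Coding sequence is richer in G + C than introns in both genomes, so a gap between coding-exon and intronic peaks is built into the rule.

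**Figure D3:**
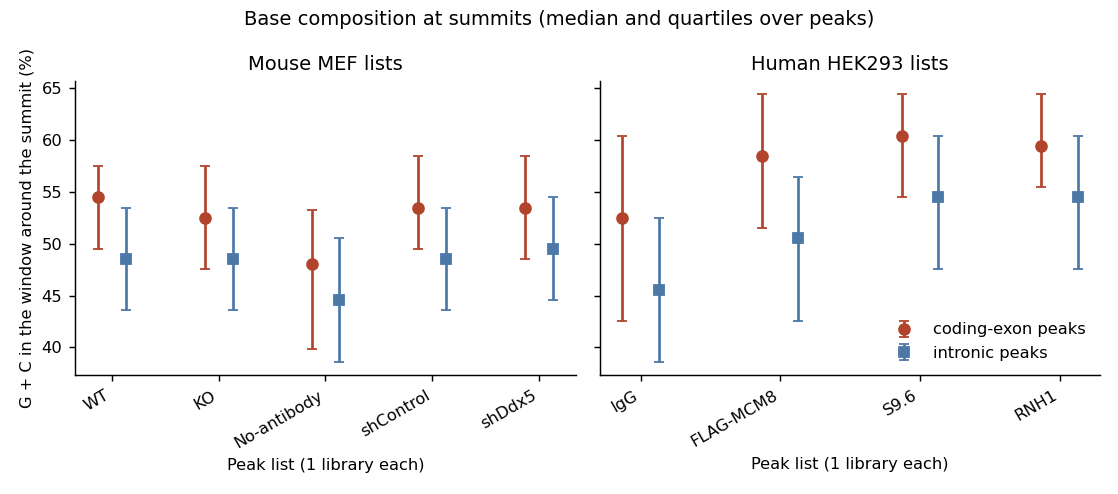
Percent G + C in the window of 50 bp to each side of the summit, median with quartiles over the peaks of a list, for coding-exon (red) and intronic (blue) peaks. The coding-exon median lies above the intronic median in each of the 9 lists, and No-antibody (48.0%) and IgG (52.5%) have the lowest coding-exon medians of their cell types.

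On the coding strand, coding summits held on average slightly more C than G. GC skew, (G - C)/(G + C) on the coding strand, is positive in sequences that favour R-loops, where a G-rich RNA pairs with a C-rich template. Its mean over members with a coding summit was -0.043 ± 0.025 (standard error over peaks) in WT, -0.0068 ± 0.018 in KO, -0.029 ± 0.020 in shDdx5, -0.019 ± 0.015 in shControl and -0.0046 ± 0.050 in No-antibody. It was -0.049 ± 0.016 in S9.6, -0.032 ± 0.017 in RNH1, -0.045 ± 0.017 in FLAG-MCM8 and -0.024 ± 0.018 in IgG. Intronic summits had means from 0.013 to 0.040 on the strand of the gene, so the sign of the mean differed between coding and intronic summits in each list, although all but the S9.6 and FLAG-MCM8 coding-summit means lay within 2 standard errors of 0. Over all coding-exon peaks, most of whose summits were not coding, the mean was above 0 in KO (0.029 ± 0.013), No-antibody (0.082 ± 0.030), shDdx5 (0.0059 ± 0.013) and S9.6 (0.011 ± 0.013) and below 0 in the other 5 lists (-0.00062 to -0.017), so the sign of the coding summits did not hold for the members as a whole. A run of 4 G (GGGG) on the coding strand was found in 37.6% (29.6 to 46.3) of the S9.6 windows with a coding summit. A run of 4 C (CCCC) on the same coding strand was found in 51.2% (42.5 to 59.8) of them. Intronic S9.6 windows held these runs on the strand of the gene in 38.3% and 34.8%. In WT the windows with a coding summit held GGGG in 33.9% (23.3 to 46.3) and CCCC in 40.3% (29.0 to 52.8), beside 27.3% and 26.0% of intronic windows.

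Coding-exon peaks were seldom found again in another library. Of the 266 KO members 8 overlapped a WT peak (3.01%, 1.53 to 5.82), where 16.5% of all KO peaks and 6.44% of KO intronic peaks did, and of the 155 WT members 11 overlapped a KO peak (7.1%, 4.01 to 12.3) beside 24.5% and 9.75%. Of the 269 shDdx5 members 12 overlapped a shControl peak (4.46%, 2.57 to 7.63) beside 20.2% and 9.18%, and of the 322 shControl members 12 overlapped a shDdx5 peak (3.73%, 2.14 to 6.40) beside 19.4% and 6.97%. The coding-exon share less the intronic share was -3.43 points (-5.25 to -0.466) for KO with WT, -4.72 (-6.96 to -1.37) for shDdx5 with shControl, -3.24 (-5.07 to -0.447) for shControl with shDdx5 and -2.66 (-6.13 to 2.69) for WT with KO. Of the KO members 15 overlapped a shDdx5 peak (5.64%, 3.45 to 9.09) beside 26.5% of all and 7.73% of intronic KO peaks. Of the WT members 9 overlapped a shControl peak (5.81%, 3.09 to 10.7) beside 21.5% and 8.19%. For these pairs the coding-exon share less the intronic share was within counting error, at -2.09 points (-4.57 to 1.51) and -2.39 (-5.48 to 2.64). Almost no member of an S9.6 MEF list overlapped a No-antibody peak: 0 of 155 in WT, 1 of 266 in KO, 0 of 322 in shControl and 0 of 269 in shDdx5, beside 1.23%, 1.15%, 0.832% and 1.06% of all peaks. The upper bounds for the 3 counts of 0 were 2.42%, 1.18% and 1.41%.

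In HEK293 cells the S9.6 and RNH1 lists, both made with S9.6, shared more than the other HEK293 pairs given here. Of the 318 S9.6 members 43 overlapped an RNH1 peak (13.5%, 10.2 to 17.7) beside 28.9% of all and 15.8% of intronic S9.6 peaks, and of the 283 RNH1 members 48 overlapped an S9.6 peak (17%, 13 to 21.8) beside 35.1% and 18.9%. FLAG-MCM8 members overlapped an S9.6 peak in 14 of 271 cases (5.17%, 3.10 to 8.48) beside 13.5% of all peaks, an RNH1 peak in 19 (7.01%, 4.53 to 10.7) beside 12.9%, and an IgG peak in 13 (4.80%, 2.83 to 8.03) beside 5.01%. S9.6 members overlapped a FLAG-MCM8 peak in 14 cases (4.40%, 2.64 to 7.25) beside 11.8%. Overlap with IgG was 14 of 318 in S9.6 (4.40%, 2.64 to 7.25) beside 5.49% and 17 of 283 in RNH1 (6.01%, 3.78 to 9.41) beside 6.63%, and 16 of the 321 IgG members overlapped an S9.6 peak (4.98%, 3.09 to 7.94) beside 4.83%. FLAG-MCM8 coding-exon peaks thus met IgG and S9.6 peaks at shares whose intervals overlapped. The difference from intronic peaks was within counting error for S9.6 with RNH1 (-2.23 points, -5.82 to 2.15) and for FLAG-MCM8 with S9.6 (-1.55, -3.79 to 1.86), but not in the reverse direction for S9.6 with FLAG-MCM8 (-3.77, -5.82 to -0.776), where 8.18% of intronic peaks overlapped.

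**Figure D4:**
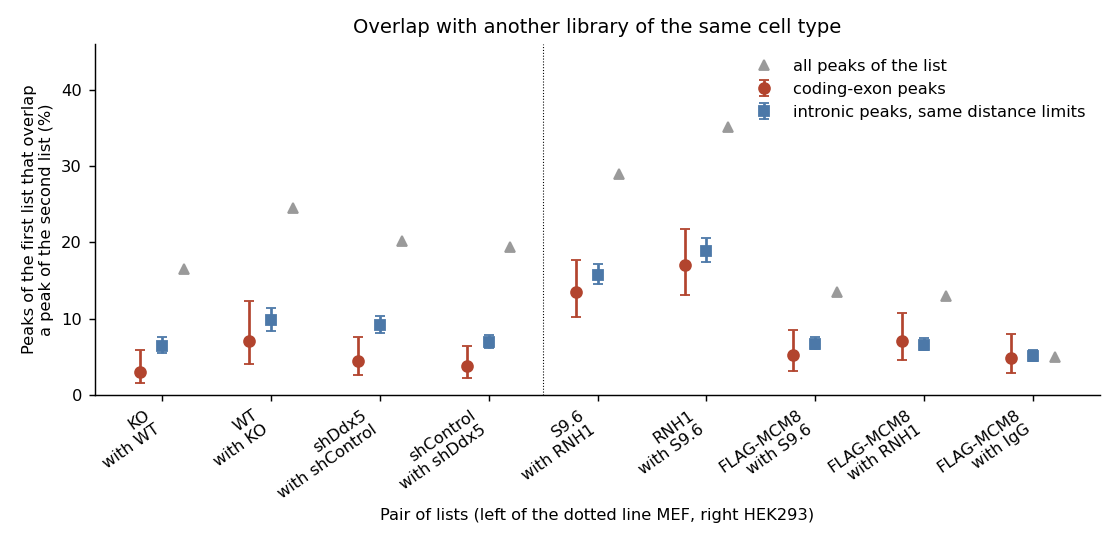
Percent of peaks of the list named first that overlap a peak of the list named after it, for coding-exon peaks (red) and intronic peaks (blue) with 95% Wilson intervals and for all peaks (grey triangles). Coding-exon peaks lie below all peaks for each pair, from 3.01% against 16.5% for KO with WT to 17% against 35.1% for RNH1 with S9.6, and for FLAG-MCM8 with IgG by a margin inside the interval (4.80% against 5.01%).

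Among the strongest coding-exon peaks the overlap was also low in several pairs. Members were put into 4 groups of near-equal size by p, and intronic peaks into the same ranges of p. The strongest range had no upper limit, so its intronic peaks were not matched to the members in strength. In KO the highest fold was 28.8 for intronic peaks and 5.88 for members. In the strongest group 2 of 67 KO members overlapped a WT peak (2.99%, 0.823 to 10.3), beside 90 of 560 intronic peaks (16.1%, 13.3 to 19.3). For FLAG-MCM8 with S9.6 it was 4 of 68 members (5.88%, 2.31 to 14.2) beside 131 of 765 intronic peaks (17.1%, 14.6 to 20). For shDdx5 with shControl 5 of 68 (7.35%, 3.18 to 16.1) stood beside 123 of 723 (17%, 14.5 to 19.9). The intervals of members and introns overlapped in shDdx5 but not in KO or FLAG-MCM8. In S9.6 with RNH1 the intervals also met, with 19 of 82 members (23.2%, 15.4 to 33.4) beside 285 of 895 intronic peaks (31.8%, 28.9 to 35), and in WT with KO the values were alike, 6 of 39 (15.4%, 7.25 to 29.7) beside 76 of 504 (15.1%, 12.2 to 18.5). The weakest KO members overlapped no WT peak, 0 of 67 with an upper bound of 5.42%. Below the strongest group the order was mixed. From the weakest group up, KO members with WT were at 0%, 1.5% and 7.6%, beside 2.5%, 2.3% and 5.8% of intronic peaks. FLAG-MCM8 members with S9.6 were at 4.4%, 7.5% and 2.9%, beside 2.3%, 3.6% and 5.8%. For shDdx5 with shControl they were at 6.0%, 3.0% and 1.5%, beside 4.9%, 5.9% and 7.4%. In each of these groups the intervals of members and introns overlapped.

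Merging the members of a cell type gave 1041 coding-exon loci in MEFs and 1114 in HEK293 cells. Of the MEF loci 1003 had a coding-exon peak in 1 list, 33 in 2 lists, 3 in 3 and 2 in 4. Of the HEK293 loci 1049 had a coding-exon peak in 1 list, 55 in 2, 7 in 3 and 3 in all 4. The MEF loci with a coding-exon peak in all S9.6 lists were in Eng and Ankle2.

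Eng encodes endoglin, a co-receptor for ligands of the TGF-beta family. At exon 13, an internal exon of 55 bp, the peak had a fold of 3.84 in WT (−log10 q of 3.39), 4.5 in KO (4.05), 3.39 in shDdx5 (2.36) and 3.15 in shControl (1.28), and No-antibody had no peak. The 4 peaks met over 44 coding bases, and the summit lay on the exon in KO, shControl and shDdx5 but not in WT. Ankle2, which encodes a protein of nuclear envelope reassembly, had peaks in the stretch from exon 12 to exon 13 with folds of 3.39 in WT, 3.67 in KO, 3.09 in shDdx5 and 3.46 in shControl. They touched exon 12 in KO and shDdx5, exon 13 in WT and both in shControl. The −log10 q was at most 1.04, so the locus passed a q of 0.05 in no list. Spg11, which encodes the lysosomal protein spatacsin, had a coding-exon peak at exon 23 in WT (fold 4.35) and shControl (2.90), and KO (3.33) and shDdx5 (3.30) had an overlapping peak that did not reach the exon.

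Vps13b, a lipid transfer protein of the Golgi, held the strongest KO member. At exon 49 the fold was 5.88 in KO (chr15:35878476-35878971, −log10 q of 6), 4.41 in WT (2.52) and 4.61 in shDdx5 (3.15), and there was no peak in shControl or No-antibody. Vps13b at this locus and Spg11 were singled out after their values were seen.

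**Figure D5:**
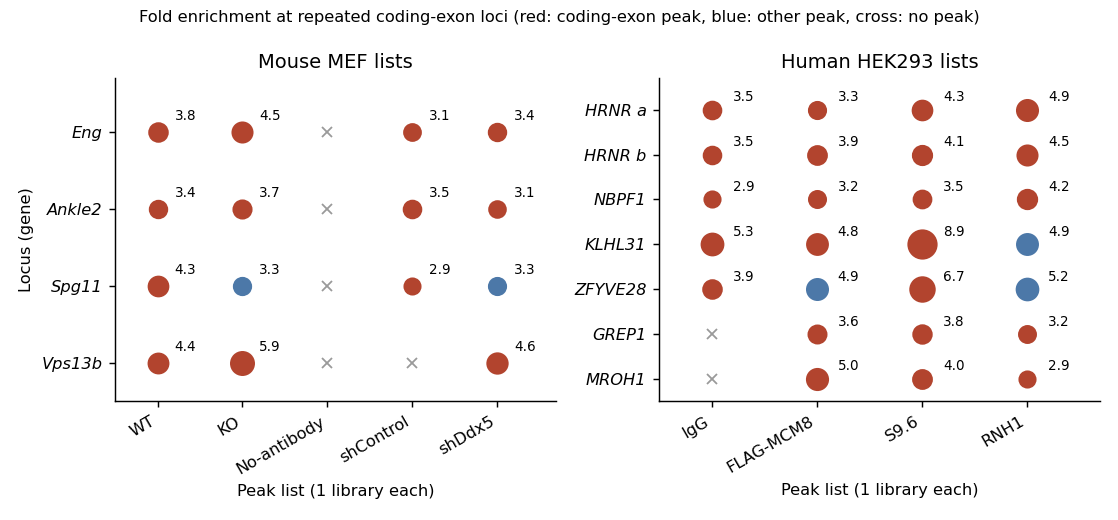
Fold enrichment (area of the circle and number) at coding-exon loci found in several lists, by list; red circles are coding-exon peaks, blue circles other peaks at the locus, and crosses mark lists without a peak. Eng and Ankle2 are red in all 4 S9.6 MEF lists, and both HRNR loci and NBPF1 are red in all 4 HEK293 lists, IgG included.

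All 3 HEK293 loci with a coding-exon peak in every list lay in repeated sequence. A pair lay in exon 3 of HRNR, the 8412 bp exon that encodes the tandem repeats of hornerin, a protein of the epidermal barrier, with folds of 4.12 and 4.32 in S9.6, 4.5 and 4.94 in RNH1, 3.95 and 3.29 in FLAG-MCM8 and 3.46 and 3.48 in IgG. The other was NBPF1, of a family with many near-identical copies, with folds of 3.53 in S9.6, 4.17 in RNH1, 3.25 in FLAG-MCM8 and 2.92 in IgG. At the HRNR peaks 81.3% to 99.7% of the 32-base words occurred more than once on the assembled chromosomes, and at NBPF1 59.8% to 64.2% did. Copies within the same peak or exon were counted. The place of reads there may be uncertain, and their mapping quality was not examined. Members with at least 50% of such words were 19 of 318 in S9.6 (5.97%, 3.86 to 9.14), 16 of 283 in RNH1 (5.65%, 3.51 to 8.99), 12 of 271 in FLAG-MCM8 (4.43%, 2.55 to 7.58) and 14 of 321 in IgG (4.36%, 2.62 to 7.19), beside 9.22% to 12.4% of intronic peaks. In MEFs 1 member of shControl, in H2-Q6 of the major histocompatibility complex, was of this kind.

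At KLHL31 and ZFYVE28 no 32-base word of the members was repeated and each HEK293 list had a peak. KLHL31, a kelch-repeat protein, held the highest fold of any S9.6 member, 8.85 (chr6:53651806-53652152, −log10 q of 17.5), over the 730 bp coding part of exon 3, with 5.30 in IgG, 4.85 in FLAG-MCM8 and 4.89 in RNH1, whose peak overlapped the same exon but had its midpoint within the 3 kb TSS limit. ZFYVE28, an inhibitor of EGFR signalling, had 6.66 in S9.6 (17.5), 3.86 in IgG, 4.93 in FLAG-MCM8 and 5.25 in RNH1, but only 4.78% of the S9.6 peak was coding, and the FLAG-MCM8 and RNH1 peaks did not reach the exon. The IgG library thus had a peak at the places of both. The loci with a coding-exon peak in FLAG-MCM8, S9.6 and RNH1 and none in IgG were GREP1 (folds of 3.62, 3.8 and 3.22) and MROH1 (4.98, 3.96 and 2.91). At MROH1 the S9.6 and RNH1 peaks did not overlap each other, and each overlapped the FLAG-MCM8 peak.

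The FLAG-MCM8 list held 2 coding-exon peaks that stood far above all its other members. They covered MCM8 exon 15 (fold 11.1, −log10 q of 3556) and exon 16 (fold 10.2, −log10 q of 3123), while the strongest member after them, over PEX10, a peroxisome biogenesis gene, had a fold of 6.64 and a −log10 q of 12.4. The exon 15 peak began 8 bp inside the exon and ended 6 bp past it, and the exon 16 peak began 8 bp before the exon and ended 1 bp past it. With widths of 218 and 219 bp they were also at the narrowest width in this list, 218 bp. No other HEK293 list had a peak over these exons, and an annotated readthrough gene shares them. A peak over MCM8 exons 9 and 10 (chr20:5967426-5968037) failed the rule with a TSS 2552 bp away, and it had the same start and end in FLAG-MCM8 (fold 21.6), S9.6 (19.7) and RNH1 (17.7). The labels of the S9.6 and RNH1 libraries name no MCM8 plasmid, and whether these reads were carried over between libraries was not tested, so the S9.6 and RNH1 folds there are uncertain. The FLAG-MCM8 cells carried MCM8 cDNA on a plasmid, and the part of plasmid sequence in the exon 15 and 16 peaks was not tested. Among the other genes of the study, 1 coding-exon peak lay over exon 3 of mouse Rnh1, the ribonuclease inhibitor gene and not that of RNase H1, in KO with a fold of 2.76 and a −log10 q of 0.449.

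Apart from MCM8, few peaks followed exon borders at both ends. Ends within 20 bp of a CDS edge were 51 of 310 in WT (16.5%, 12.7 to 21), 14.9% in KO, 16.4% in shDdx5, 15.2% in shControl and 14.2% in No-antibody, and 14.9% in S9.6, 12.7% in RNH1, 12.5% in FLAG-MCM8 and 12% in IgG. Ends 21 to 41 bp from an edge, a stretch of the same size, were 10.7% (S9.6) to 14.9% (shDdx5). In WT the farther ends were 11.6% (8.51 to 15.7), an interval that overlapped that of the nearer ends. In FLAG-MCM8 (13.5%) and RNH1 (13.25%) the farther ends were the larger share. Both ends lay within 20 bp of an edge in 1 to 6 members of a list. The members of this kind that spanned several exons were Tnfrsf8 in WT (the receptor CD30, fold 3.96), Insrr in KO (a receptor of the insulin family, 3.74), Ltbp2 in No-antibody (an extracellular matrix protein, 2.92), Mybphl (4), Tmem8b (3.63) and the splicing factor gene Rbfox2 (2.85) in shControl, and Pcx (pyruvate carboxylase, 3.77), Prkaca (a catalytic subunit of protein kinase A, 3.46) and Eme1 (a subunit of a structure-specific endonuclease, 3.13) in shDdx5. In HEK293 cells they were ENDOV (3.08) in IgG, MSLNL (3.98) in FLAG-MCM8, and ZNF169 (5.41) and PKLR (the pyruvate kinase of liver and red cells, 3.52) in S9.6.

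The strongest members differed from list to list. In WT they lay over Rc3h1, which encodes the RNA-binding protein Roquin-1 (fold 5.94, −log10 q of 4.97), the ubiquitin ligase gene Rnf213 (4.82, 4.15) and Eng. In KO they were Vps13b, Eng and 6820408C15Rik (4.81, 3.51). In shControl they included Qrich2, a gene of the sperm flagellum (4.41, 3.72), and Sh2d6 (4.59, 3.25), and in shDdx5 the splicing factor gene Cwc22 (3.55, 6.27), Zfp287 (5.65, 5.43) and Farp2 (4.92, 4.63). No-antibody had Egfl6 (7.36, 5.03), the axonemal dynein gene Dnah17 (6.19, 3.13) and Ankfn1 (5.31, 2.02), on pileups of 9, 7 and 6 fragments. The highest MEF fold was that of Egfl6, in the library with the lowest pileups.

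In HEK293 cells IgG had its strongest members over NBPF12 (6.20, 20.9), EGFR, the epidermal growth factor receptor gene (6.21, 18.8), and ATRN (7.27, 15.8). S9.6 had KIAA1522 (5.30, 18.8), ZFYVE28 and KLHL31, and RNH1 had RANGAP1, which encodes the GTPase activator of nuclear transport (5.36, 16.1), HRNR and NBPF1. The RANGAP1 locus also had a peak in IgG but none in S9.6 or FLAG-MCM8. NBPF12 has near-identical copies, with 94.8% of its words found more than once. The KIAA1522 peak touched only 20 coding bases. Genes with 3 coding-exon peaks in 1 list were Lrp1, an endocytic receptor, in shDdx5 (folds of 2.84 to 3.36), TTBK1, a kinase of tau, in S9.6 (3.20 to 5.40) and TEX14, a gene of germ cell bridges, in RNH1 (3.74 to 4.54), and no gene had more in a list.

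Gene groups held coding-exon peaks in small numbers. Factors that act on R-loops hold 0.506% of the permitted coding bases in mouse and 0.477% in human. They had 1 coding-exon peak in WT, 0 in KO, 2 in shControl, 1 in shDdx5 and 1 in No-antibody (the RNA helicase gene Ddx23), and 0 in S9.6, 2 in RNH1 (RTEL1 and TOP3B), 2 in FLAG-MCM8 (one of them in RTEL1) and 1 in IgG (RNASEH2B). RTEL1 is a helicase of telomeres and of G-rich structures, and its peaks, at folds of 6.46 in FLAG-MCM8 and 3.83 in RNH1, met over exon 10, which a readthrough gene shares. Extracellular matrix genes (0.930% of mouse coding bases) had 1 to 3 peaks in each MEF list. Among them was Hspg2, which encodes perlecan, in WT, shControl and shDdx5 at different exons. The group's share of members was highest in No-antibody, at 4.05% (1.39 to 11.3), over Ltbp2, Fbn1 and Col7a1. Only this MEF interval lay above the share of bases. In the S9.6 MEF lists the share was 0.645% to 1.13%, with intervals that overlapped that of No-antibody. Cytoskeleton genes (1.13%) had 0 in WT, 4 in KO, 5 in shControl, 5 in shDdx5 and 1 in No-antibody. Chromatin regulators (0.683% of mouse and 0.487% of human coding bases) had 1 or 2 in each MEF list, 4 in S9.6 (1.26%, 0.49 to 3.19), 1 in FLAG-MCM8, 1 in RNH1 and 0 in IgG (upper bound 1.18%), and the S9.6 and IgG intervals overlapped.

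Zinc finger genes hold 4.25% of the permitted human coding bases and had 10 of the IgG members (3.12%, 1.7 to 5.64), 2 of the S9.6 members (0.629%, 0.173 to 2.26), 2 of FLAG-MCM8 (0.738%, 0.203 to 2.65) and 5 of RNH1 (1.77%, 0.757 to 4.07). The IgG interval included the share of bases and the other 3 lay below it, but zinc finger genes code from long exons, which catch fewer peaks per base under a rule of 1 bp. In mouse they hold 2.78% and had 4 members in WT, 6 in KO, 4 in shControl, 4 in shDdx5 and 1 in No-antibody, and Zfp398 was hit in both WT (4.31) and KO (3.90). Solute carriers hold 1.69% of mouse and 1.67% of human coding bases and had 5 members in WT, 6 in KO, 9 in shControl, 5 in shDdx5, 2 in No-antibody, 6 in S9.6, 6 in RNH1, 3 in FLAG-MCM8 and 7 in IgG. RING and other ubiquitin ligase genes (0.851% of mouse and 0.761% of human coding bases) had 1 to 4 members in each list, and kinesin and dynein genes (1.32% and 1.59%) had 0 to 5. Clustered protocadherins, whose large exons lie near their TSSs, had 0 in each list and hold 0.00294% of mouse and 0.00369% of human permitted bases. Members named in this and the preceding paragraph were chosen after their values were seen, and the groups were described by counts only.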

How the data were processed

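CUT&Tag peaks were analysed from 9 libraries, grouped by their labels, with 1 library per group. The authors trimmed adapters and low-quality reads, aligned MEF reads to mm10 and HEK293 reads to hg38 with bowtie2 and called peaks per library with MACS2 (2.1.2 per the labels' processing notes, which differs from the study's methods). They deposited for each peak a fold enrichment (ratio) over local background, −log10 p and −log10 q, and a summit offset. The calling threshold, duplicate removal and read totals are not given in the sources used here. Mitochondrial peaks, 0 to 9 per list, were left out.

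Membership used GENCODE M21 (mouse) and v44 (human), with peaks counted once whatever transcript they touched. Intronic peaks obeyed the same limits. Shares have 95% Wilson intervals, differences have intervals built from these, and count ratios have Poisson intervals on the log scale.  Summit pileups were solved from fold and Poisson p. Repeated sequence was measured by 32-base words. The counting was tested on simulated data. Python 3.11.15, pandas 2.3.3, scipy 1.17.1 and pysam 0.24.0 were used.

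Named genes were the 3 strongest members per list by q, members in genes of the study, genes with 3 or more members in 1 list, members repeated in all 4 S9.6 MEF lists or in FLAG-MCM8, S9.6 and RNH1 without IgG (at most 5), and members with both ends within 20 bp of CDS edges over 2 or more exons (at most 3 per list). Others were named after their values were seen. The share of peaks inside genes was added after seeing the data. The alternatives changed peak strength, number, overlap, TSS distance, transcripts, merging, control peaks and edge distance. The score column was not used. Members, gene groups and rules were chosen with earlier results of these data known. Results at some genes are not reported here.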

Additional observations from a re-analysis of the deposited data

Results flagged for a closer look

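The share of the list over coding exons had differences of opposite sign in the pairs of MEF libraries, and the interval of each included 0. The share was 0.378 percentage points (-0.129 to 0.867) higher in KO than in WT. For shDdx5 less shControl it was -0.341 points (-0.733 to 0.0516). The difference between these differences was 0.719 points (0.0776 to 1.35), with an interval that covers counting error only. With 1 library per group it was not tested beyond that. With basic-tag transcripts only, KO less WT turned to -0.199 points. With a q of at most 1e-05 the differences were 0.273 points (-1.66 to 1.53) and 0.211 points (-1.70 to 0.765). These rest on 1 member in KO and 2 in shDdx5. WT and shControl had 0, so neither difference could fall below 0 and their sign carries no information. On the measure restricted to peaks inside genes both differences were above 0 (1.15 and 0.769 points), and each interval included 0.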

How the results depend on the processing

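Each list was 1 library, so all intervals cover counting error only and no spread between replicates was measured. MEF coding-exon peaks rest on few fragments, and a list holds no value below its threshold, so a missing peak has no measured level. No paired analysis was possible because the groups hold 1 library each and carry no replicate numbers. Over all measures 154 alternative values were computed. In the share of peaks inside genes, each S9.6 library (RNH1 included) less its control had an interval above 0 in 5 of 5 alternatives. KO less WT and RNH1 less S9.6 had intervals that included 0 in all alternatives run on both shares. The cause of the changes below was not tested.

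For the share of the list, transcripts with the basic tag only gave -0.199 points for KO less WT, -0.585 (-1.08 to -0.0881) for shDdx5 less shControl, 1.67 for WT less No-antibody, 0.692 for FLAG-MCM8 less IgG and 1.73 for S9.6 less IgG. Peaks with a q of at most 1e-05 gave 0.211 for shDdx5 less shControl, on 2 members in shDdx5 and 0 in shControl, and -0.262 for S9.6 less IgG. In reverse, they gave -12.5 for WT less No-antibody, where WT has 0 members and No-antibody has 8 such peaks, of which 1 is a member. The same number of strongest peaks gave -1.14 (-1.69 to -0.604) for shDdx5 less shControl, and a TSS limit of 1 kb gave 0.911 for S9.6 less IgG.

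For overlap, a q of at most 1e-05 left 1 KO and 2 shDdx5 members, too few to compare (0% with upper bounds of 79.3% and 65.8%). Requiring 50% of both peaks gave 1.13% for KO with WT, 1.12% for shDdx5 with shControl, 6.92% for S9.6 with RNH1 and 2.21% for FLAG-MCM8 with S9.6. Counting peaks within 1 kb gave 8.55% for shDdx5 with shControl, 19.2% for S9.6 with RNH1 and 9.96% for FLAG-MCM8 with S9.6.

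For the share inside genes, whose alternatives were chosen after seeing the data, requiring 50% of the width over CDS gave 1.27 points for WT, 1.54 for KO, 1.77 for shControl and 1.64 for shDdx5 less No-antibody, 2.15 for S9.6 and 2.32 for RNH1 less IgG, and -1.14 for FLAG-MCM8 less S9.6. The summit on a coding base gave 2.5 for KO and 2.08 for shDdx5 less No-antibody, 1.76 for S9.6 and 2.73 for RNH1 less IgG, and -0.489 (-1.33 to 0.334) for FLAG-MCM8 less S9.6. Basic-tag transcripts gave 5.97 for WT, 5.05 for shControl and 5.94 for shDdx5 less No-antibody, 2.39 for FLAG-MCM8, 7.91 for S9.6 and 8.59 for RNH1 less IgG, and -5.53 for FLAG-MCM8 less S9.6. The same number of strongest peaks gave -1.08 for shDdx5 less shControl.

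The share of peak ends at a CDS edge moved in 25 of 34 alternatives. Ends within 10 bp were 4.05% to 9.03% and ends within 50 bp 26.2% to 38.1% over the lists, and with 50% of the width over CDS the share within 20 bp was 9.46% (IgG) to 20% (No-antibody). At a q of at most 1e-05 the HEK293 lists gave 11.3% to 16.3%, and the MEF lists held too few members.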
